A study of Mus musculus with 24 samples.

Results

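The 32 genes described here encode the enzymes of the citric acid cycle and the pyruvate dehydrogenase complex, with kinases of that complex and enzymes that refill the cycle or carry its intermediates across the mitochondrial membrane. They were taken by symbol, without regard to their values: every probe set annotated to exactly 1 of the 32 symbols was used. This gave 77 of the 45101 probe sets in the table. Of these, 4 probe sets of Pcx are Affymetrix controls and were left out of the tests, which leaves 73 of the 45037 probe sets tested, for 32 of 18193 genes. There was 1 probe set for 9 of the genes and more than 1 for the other 23, up to 5.

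RNA was taken from whole hearts of 4 groups of mice at 90 days of age, with 6 biological replicates in each, and hybridised to 24 arrays. Non-transgenic mice (NTG) carried no transgene. AC5 mice carried a human cDNA of AC5, the usual name of type V adenylyl cyclase, the enzyme that makes cyclic AMP. GLY and ARG mice carried human cDNAs of the beta1-adrenergic receptor, in the beta1-Gly389 and beta1-Arg389 forms. In all 3 transgenic groups the alpha-myosin heavy chain promoter drove the transgene in cardiac myocytes, on top of the mouse's own genes. The sources used here do not name the strain, the number of founder lines or whether hearts were pooled. Where nothing else is said, a p-value sets a difference against the spread between hearts of the same group, pooled over all 4 groups.

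Pyruvate dehydrogenase turns pyruvate into acetyl-CoA inside mitochondria. The citric acid cycle then oxidises the acetyl group and passes electrons to the respiratory chain, which makes most of the ATP of the beating heart. Heart muscle also feeds the cycle with acetyl-CoA from fatty acids and ketone bodies, and pyruvate dehydrogenase kinases switch the complex off by phosphorylation.

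The deposited values were ratios that centred near 1 in NTG hearts, so they hold differences between hearts but not how abundant a transcript was. Array medians of the log2 ratio lay between -0.05 and 0.09. The labels name no batches. Replicates 1 to 3 and replicates 4 to 6 of NTG each centred near 1 on their own. Every single NTG array did so too, so this cannot show that the sets were batches. Values within each set are given beside those over all 6 hearts for the called probe sets described. The mean SD between hearts over all probe sets, on the log2 scale, was largest in GLY (0.221) and ARG (0.192) and smaller in AC5 (0.155) and NTG (0.143), and limma gave its lowest array weights to GLY replicate 3 (0.312), GLY replicate 1 (0.354) and ARG replicate 1 (0.478). Mouse Adcy5 and Myh6 probe sets do not check human transgenes. The highest Adcy5 difference in AC5 was 0.41 on the log2 scale, with an adjusted p of 0.0813.

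In ARG hearts transcripts fell in all 6 role groups of the pathway. Against NTG, 32 of the 73 probe sets fell (43.8%, where 5.63% of all probe sets fell) and 1 rose, that of Pdk3 (1.37%, where 4.04% of all rose), by limma with an adjusted p under 0.05. By gene, 20 of 32 had a probe set that fell, 1 had a probe set that rose and 11 had neither. This rule favours genes with several probe sets, and its share over all genes was not counted. With 1 probe set per gene, chosen by its name and not by its values, 17 genes fell and 1 rose. Their median log2 difference over the 32 was -0.37, with a range of -0.86 to 0.51, and 29 of 32 were below 0. The median over all probe sets was 0.00. In 27 member probe sets (37.0%, against 3.79% of all) every ARG heart lay below every NTG heart.

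GLY hearts followed with smaller counts and a wider spread. Against NTG, 23 of the 73 probe sets fell (31.5%, where 3.53% of all fell), none rose, and 15 of 32 genes were represented among them. At the 1 chosen probe set per gene 11 genes fell. The median over these chosen probe sets of all 32 genes was -0.20, with 28 of 32 below 0, beside 0.03 over all probe sets. All 6 GLY hearts lay below all NTG hearts in 18 probe sets (24.7%, against 1.61% of all). In AC5 hearts 1 probe set fell, for Idh2 (1.37%, where 0.0733% of all fell). There, 25 of the 26 probe sets with an unadjusted p under 0.05 were lower, but the share of all probe sets at this threshold was not counted. The AC5 median per gene was -0.16, with 27 of 32 below 0, beside -0.00 over all probe sets, and the groups did not overlap in 5 probe sets (6.85%, against 0.733% of all). These 3 comparisons use the same NTG hearts, so their values are not independent of each other.

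**Figure D1:**
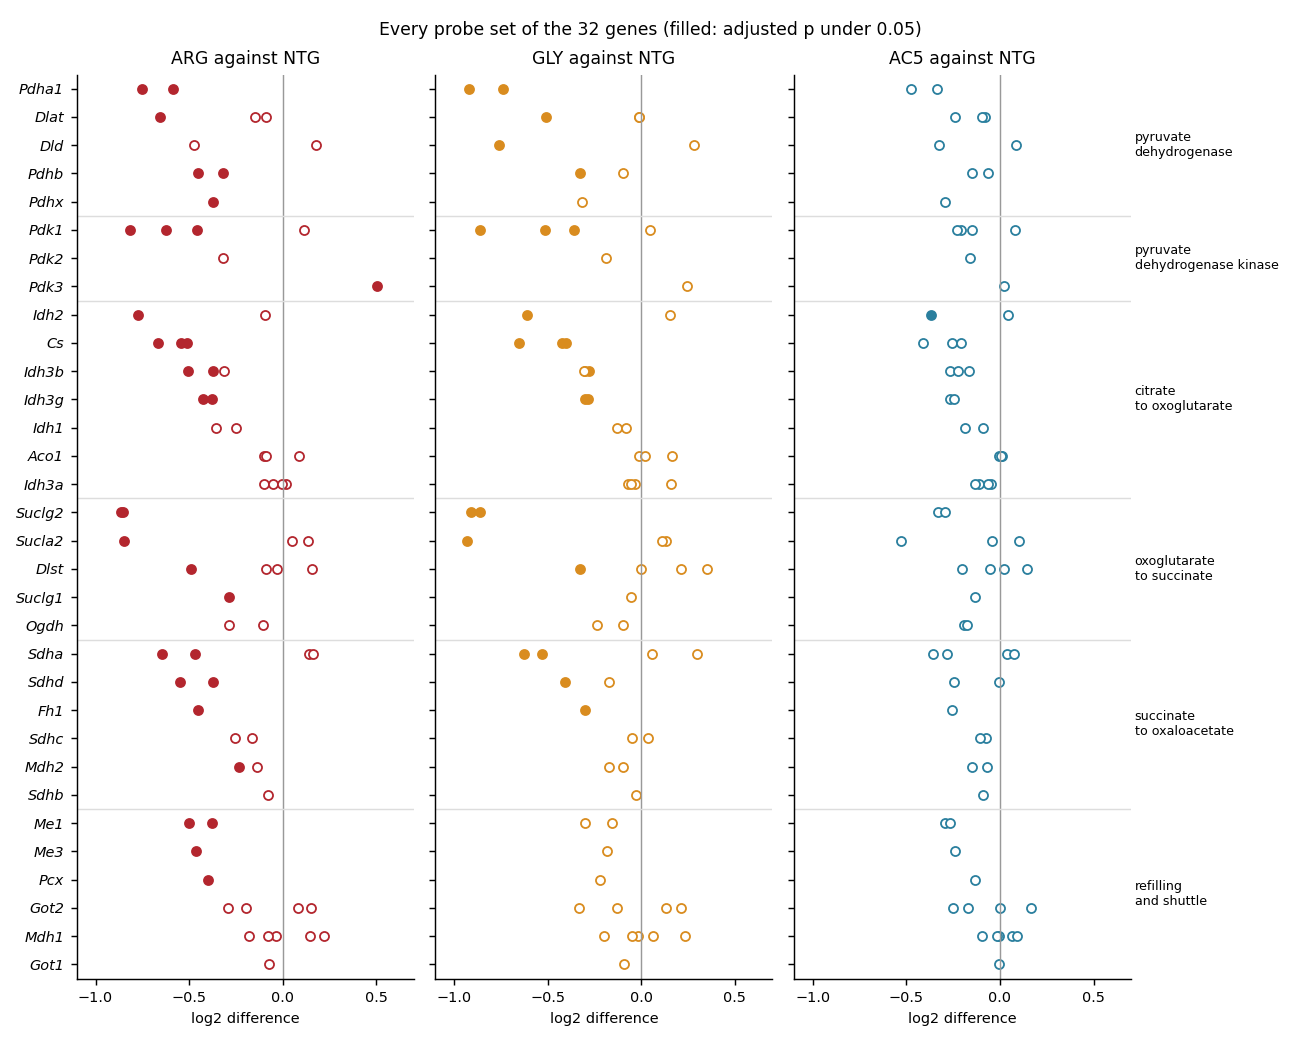
Log2 difference from NTG (x axis) of each of the 73 probe sets of the 32 genes (rows, in 6 role groups) in ARG, GLY and AC5 hearts. Filled points had an adjusted p under 0.05 (33 in ARG, 23 in GLY and 1 in AC5), and several genes, such as Sucla2, Dlat and Idh2, have filled and open points far apart.

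The subunits of the pyruvate dehydrogenase complex fell in both receptor lines. At least 1 probe set fell for 4 of the 5 genes in ARG and for 4 in GLY, but not the same 4: Pdhx fell in ARG and Dld in GLY, while Pdha1, Pdhb and Dlat fell in both. No test of the difference between the lines was passed for either gene. Pdha1 encodes the catalytic alpha subunit that the kinases phosphorylate. Its ratio at probe set 1418560_at was 0.910 to 1.04 in NTG (median 0.969) and 0.539 to 0.744 in ARG (median 0.667). In GLY it spread from 0.356 to 0.891 (median 0.643), and in AC5 from 0.689 to 0.924 (median 0.764). All ARG and all GLY hearts lay below all NTG hearts, and the GLY range was the widest. The log2 difference was -0.59 ± 0.16 (SE) in ARG, with an adjusted p of 0.0185, and -0.74 ± 0.16 in GLY, with an adjusted p of 0.00759. The second Pdha1 probe set, 1449137_at, fell as well, by 0.75 in ARG and by 0.92 in GLY. Within GLY the fall differed between the sets of hearts: at 1418560_at it was -1.18 in replicates 1 to 3 and -0.30 in replicates 4 to 6, against -0.70 and -0.47 in ARG. The GLY call at 1418560_at, though not that at 1449137_at, was lost when only the GLY and NTG hearts were fitted.

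Dld, the dihydrolipoamide dehydrogenase that the pyruvate and oxoglutarate complexes share, was low in a few GLY hearts. At 1423159_at its ratio was 0.830 to 1.12 in NTG (median 0.930), 0.604 to 0.842 in ARG (median 0.635), 0.280 to 0.960 in GLY (median 0.691) and 0.665 to 0.958 in AC5 (median 0.740). The groups overlapped. The log2 difference of GLY from NTG was -0.76 ± 0.22 (adjusted p = 0.039), but it was -1.37 in replicates 1 to 3 and -0.15 in replicates 4 to 6. The call was lost, with adjusted p up to 0.116, on leaving out GLY replicate 1 or 3 or any of NTG replicates 1, 2, 3, 5 and 6, and also after quantile normalization (adjusted p = 0.128). In ARG the difference was -0.48 ± 0.22, with an adjusted p of 0.204. That SE rests on 1 spread shared by all genotypes, so it includes the wide GLY spread. The missing call in ARG therefore does not show that Dld was unchanged there. A second Dld probe set, 1433263_at, stood at 0.28 in GLY and 0.18 in ARG, without a call.

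Pdhb, the beta subunit of the first enzyme, fell in ARG at both probe sets (-0.45 ± 0.09 at 1416090_at and -0.32 ± 0.08 at 1448214_at, adjusted p = 0.000746 and 0.00976), the second of which was lost after quantile normalization (adjusted p = 0.0573). In GLY it fell at 1416090_at only, by 0.33 (adjusted p = 0.0254). The difference there was -0.47 in replicates 1 to 3 and -0.18 in replicates 4 to 6. The call was lost on leaving out GLY replicate 1 or 3 or NTG replicate 2, 3 or 5, with adjusted p up to 0.0762, and after quantile normalization (adjusted p = 0.0765). Pdhx, which anchors Dld to the core of the complex, fell by 0.37 in ARG (adjusted p = 0.0206). Leaving out NTG replicate 1, ARG replicate 3 or ARG replicate 5 raised that adjusted p to between 0.056 and 0.0578, and quantile normalization raised it to 0.0538. Dlat, the acetyltransferase of the core, depended on the probe set. At 1452005_at it fell by 0.66 in ARG and by 0.51 in GLY (adjusted p = 0.000668 and 0.015). In ARG it was -0.60 in replicates 1 to 3 and -0.71 in replicates 4 to 6, and in GLY -0.71 and -0.32. The GLY call was lost after quantile normalization (adjusted p = 0.0706) and without the 3 low-weight arrays (adjusted p = 0.117). Its other 2 probe sets were not called, with log2 differences of -0.15 and -0.09 in ARG and of -0.01 at both in GLY.

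Among the pyruvate dehydrogenase kinases, Pdk1 and Pdk3 moved in opposite directions in ARG. Pdk3 was the only gene of the 32 with a probe set that rose. Its ratio was 0.831 to 1.16 in NTG (median 0.996), 0.900 to 1.16 in AC5 (median 0.998), 0.908 to 1.54 in GLY (median 1.17) and 1.10 to 1.70 in ARG (median 1.46). The lowest ARG heart lay within the NTG range, while the other 5 lay above it. The log2 difference was 0.51 ± 0.12 in ARG (adjusted p = 0.00396) and 0.24 ± 0.12 in GLY (adjusted p = 0.246). It was 0.46 in ARG replicates 1 to 3 and 0.56 in replicates 4 to 6.

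Pdk1 fell at 3 of its 4 probe sets in both receptor lines. At 1423748_at its ratio was 0.857 to 1.19 in NTG (median 0.978), 0.765 to 1.01 in AC5 (median 0.834), 0.698 to 0.829 in GLY (median 0.766) and 0.640 to 0.802 in ARG (median 0.704). No GLY or ARG heart reached the NTG range, and their own ranges overlapped. The log2 difference was -0.46 ± 0.08 in ARG (adjusted p = 0.000338) and -0.36 ± 0.08 in GLY (adjusted p = 0.0091). It was -0.42 and -0.50 in the 2 sets of ARG hearts and -0.38 and -0.35 in those of GLY, and the GLY call was lost after quantile normalization (adjusted p = 0.241). Probe sets 1423747_a_at and 1435836_at fell by 0.62 and 0.82 in ARG and by 0.51 and 0.86 in GLY. In replicates 1 to 3 and 4 to 6 of GLY, 1435836_at stood at -1.25 and -0.48. At 1423747_a_at the difference was -0.83 and -0.42 in the 2 sets of ARG hearts and -0.72 and -0.31 in those of GLY. The GLY call at 1423747_a_at was lost on leaving out GLY replicate 1 or 3 or any of NTG replicates 1 to 5, with adjusted p up to 0.0808, and after quantile normalization (adjusted p = 0.0983). The fourth, 1434974_at, stood at 0.11 in ARG and 0.05 in GLY. Pdk2 was not called (-0.32 ± 0.12 in ARG, adjusted p = 0.106). Pdk4, outside the 32 genes, stood at 0.10 ± 0.18 in ARG, 0.14 in GLY and -0.69 in AC5, with no call against NTG.

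From citrate to oxoglutarate, the mitochondrial enzymes Cs, Idh2, Idh3b and Idh3g fell in ARG and in GLY, while Idh3a, Idh1 and Aco1 were not called in either. Cs, citrate synthase, joins acetyl-CoA to oxaloacetate as the entry step of the cycle. At 1422577_at its ratio was 0.889 to 1.2 in NTG (median 0.944), 0.525 to 0.749 in ARG (median 0.632), 0.554 to 0.773 in GLY (median 0.613) and 0.679 to 0.874 in AC5 (median 0.749). All hearts of the 3 transgenic groups lay below all NTG hearts. The log2 difference was -0.67 ± 0.10 in ARG (adjusted p = 4.36e-05), -0.66 ± 0.10 in GLY (adjusted p = 0.000317) and -0.41 ± 0.10 in AC5, which was not called (adjusted p = 0.112). Within replicates 1 to 3 and 4 to 6 it was -0.72 and -0.61 in ARG and -0.81 and -0.51 in GLY. Both other Cs probe sets fell in ARG (-0.54 and -0.51) and in GLY (-0.43 and -0.40).

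Idh2 encodes the NADP-dependent isocitrate dehydrogenase of mitochondria, a source of NADPH there. At 1450048_a_at it had the lowest adjusted p of the 73 probe sets in ARG, in GLY and in AC5. The ratio was 0.942 to 1.11 in NTG (median 1.04), 0.733 to 0.951 in AC5 (median 0.778), 0.616 to 0.723 in GLY (median 0.680) and 0.505 to 0.677 in ARG (median 0.614). GLY and ARG hearts lay below all NTG hearts, and AC5 overlapped NTG in its highest heart. The log2 differences were -0.78 ± 0.08 in ARG (adjusted p = 1.38e-07), -0.61 ± 0.08 in GLY (adjusted p = 3.09e-05) and -0.37 ± 0.08 in AC5 (adjusted p = 0.0469). The ARG value was -0.81 in replicates 1 to 3 and -0.74 in replicates 4 to 6, and the GLY value -0.60 and -0.63. The AC5 call did not hold without any 1 of 11 of the 12 AC5 and NTG hearts, where its adjusted p was 0.0532 to 0.141. It held without AC5 replicate 4. The other Idh2 probe set, 1453601_at, stood at -0.09 in ARG, 0.15 in GLY and 0.04 in AC5, with no call.

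Idh3a, Idh3b and Idh3g form the NAD-dependent isocitrate dehydrogenase, in which Idh3a carries the catalytic site. Idh3a was not called at any of its 4 probe sets, which lay between -0.10 and 0.02 in ARG. Idh3g fell at both probe sets (-0.38 ± 0.07 and -0.43 ± 0.07 in ARG, -0.29 and -0.30 in GLY). Both GLY calls were lost after quantile normalization (adjusted p = 0.0564 and 0.0524). At 1416789_at the difference was -0.45 and -0.31 in the 2 sets of ARG hearts and -0.34 and -0.23 in those of GLY. At the chosen Idh3b probe set, 1441271_at, the ratio was 0.753 to 1.16 in NTG (median 0.986), 0.755 to 1.02 in AC5 (median 0.866), 0.664 to 0.988 in GLY (median 0.777) and 0.535 to 0.939 in ARG (median 0.660). The ARG and NTG ranges overlapped here. The difference was -0.51 ± 0.13 in ARG (adjusted p = 0.0101), with -0.76 in replicates 1 to 3 and -0.26 in replicates 4 to 6, and was not called after quantile normalization (adjusted p = 0.129). A second Idh3b probe set, 1418886_s_at, fell in ARG (-0.37 ± 0.07) and in GLY (-0.28 ± 0.07, adjusted p = 0.0205), though the GLY call was lost without GLY replicate 1 or NTG replicate 3 or 6 (adjusted p up to 0.0571) and after quantile normalization (adjusted p = 0.0866). Idh1, the cytosolic NADP-dependent enzyme, stood at -0.36 ± 0.15 and -0.25 ± 0.11 in ARG, without a call. Aco1, the cytosolic aconitase, lay between -0.10 and 0.08 in ARG.

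Between oxoglutarate and succinate, the ligase subunits Suclg2 and Sucla2 had the largest falls of the pathway in ARG. Succinyl-CoA ligase pairs the alpha subunit Suclg1 with a beta subunit that sets the nucleotide it makes, Suclg2 for GTP and Sucla2 for ATP. Suclg2 at 1427441_a_at had ratios of 0.833 to 1.23 in NTG (median 0.988), 0.698 to 0.915 in AC5 (median 0.781), 0.359 to 0.784 in GLY (median 0.539) and 0.453 to 0.673 in ARG (median 0.541). Both receptor lines lay wholly below NTG. The log2 difference was -0.86 ± 0.15 in ARG (adjusted p = 0.000269) and -0.91 ± 0.15 in GLY (adjusted p = 0.000696). In ARG it was -0.89 in replicates 1 to 3 and -0.82 in replicates 4 to 6, but in GLY -1.24 and -0.57. The second Suclg2 probe set fell by 0.86 in both lines.

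Sucla2 fell at 1452206_at, by 0.85 in ARG and by 0.93 in GLY (adjusted p = 0.00221 and 0.00279). Its ratio there was 0.809 to 1.05 in NTG (median 0.955), 0.574 to 0.843 in AC5 (median 0.626), 0.283 to 0.827 in GLY (median 0.570) and 0.465 to 0.631 in ARG (median 0.50). The difference was -0.85 and -0.84 in the 2 sets of ARG hearts, but -1.38 in replicates 1 to 3 and -0.48 in replicates 4 to 6 of GLY. The other 2 Sucla2 probe sets stood at 0.14 and 0.05 in ARG and at 0.13 and 0.11 in GLY, without a call. Suclg1 had a smaller fall in ARG, -0.29 ± 0.06 (adjusted p = 0.00325), with -0.32 and -0.26 in the 2 sets, and stood at -0.06 ± 0.06 in GLY (adjusted p = 0.713).

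Dlst, the succinyltransferase core of the oxoglutarate dehydrogenase complex, was lower at 1 of 4 probe sets. At 1423710_at the ratio was 0.842 to 1.16 in NTG (median 0.999), 0.736 to 1.05 in AC5 (median 0.844), 0.694 to 0.878 in GLY (median 0.787) and 0.610 to 0.785 in ARG (median 0.730). ARG did not overlap NTG, and GLY did. The difference was -0.49 ± 0.09 in ARG (adjusted p = 0.000598) and -0.33 ± 0.09 in GLY (adjusted p = 0.0355). In the 2 sets of hearts it was -0.51 and -0.46 in ARG and -0.40 and -0.25 in GLY. The GLY call was lost without any 1 of GLY replicates 1, 2, 3 and 5 or NTG replicates 1, 4 and 6, with adjusted p up to 0.0866, and after quantile normalization (adjusted p = 0.309). At the other 3 probe sets the difference was -0.09 to 0.16 in ARG and 0.00 to 0.35 in GLY, with no call, and the mean over the 4 probe sets in GLY was 0.0599, of opposite sign to the called one.

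From succinate to oxaloacetate, Sdha, Sdhd and Fh1 fell in both lines, Mdh2 in ARG, and Sdhb and Sdhc in neither. Succinate dehydrogenase is also complex II of the respiratory chain. Sdha is its flavoprotein, Sdhb its iron-sulfur subunit, and Sdhc and Sdhd its membrane anchors. The ratio of Sdha at 1426688_at was 0.940 to 1.07 in NTG (median 0.975), 0.701 to 0.936 in AC5 (median 0.799), 0.489 to 0.874 in GLY (median 0.711) and 0.636 to 0.781 in ARG (median 0.704). All 3 transgenic groups lay below all NTG hearts. The log2 difference was -0.47 ± 0.11 in ARG (adjusted p = 0.00565), -0.53 ± 0.11 in GLY (adjusted p = 0.00481) and -0.28 ± 0.11 in AC5 (adjusted p = 0.499). In ARG it was -0.52 in replicates 1 to 3 and -0.41 in replicates 4 to 6, and in GLY -0.82 and -0.24. A second Sdha probe set, 1426689_s_at, fell by 0.65 in ARG and by 0.62 in GLY. In the same sets of hearts it stood at -0.63 and -0.66 in ARG and at -0.88 and -0.37 in GLY. The remaining 2 stood at 0.14 and 0.16 in ARG and at 0.06 and 0.30 in GLY, with no call.

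At 1428235_at, Sdhd had ratios of 0.908 to 1.08 in NTG (median 1.05), 0.737 to 0.934 in AC5 (median 0.880), 0.647 to 0.913 in GLY (median 0.768) and 0.604 to 0.909 in ARG (median 0.679). The highest GLY and ARG hearts just reached the lowest NTG heart. The difference was -0.55 ± 0.10 in ARG (adjusted p = 0.000339) and -0.41 ± 0.10 in GLY (adjusted p = 0.013). The ARG value was -0.59 in replicates 1 to 3 and -0.50 in replicates 4 to 6, and the GLY value -0.59 and -0.23. The GLY call was lost without the 3 low-weight arrays (adjusted p = 0.116). Sdhd fell at its other probe set, 1437489_x_at, in ARG (-0.37 ± 0.09) but was not called there in GLY (-0.18 ± 0.09). Sdhb stood at -0.08 ± 0.06 in ARG and -0.03 in GLY, with ratios of 0.984 to 1.06 in NTG, 0.868 to 1.02 in ARG and 0.970 to 1.03 in GLY. Sdhc stood at -0.26 ± 0.10 and -0.16 ± 0.07 in ARG (adjusted p = 0.113 and 0.186).

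Fh1, fumarase, had ratios of 0.939 to 1.06 in NTG (median 1.02), 0.763 to 0.969 in AC5 (median 0.842), 0.656 to 0.981 in GLY (median 0.837) and 0.655 to 0.816 in ARG (median 0.735). ARG lay wholly below NTG, and GLY overlapped it. The difference was -0.45 ± 0.08 in ARG (adjusted p = 0.00047), and it was -0.46 and -0.45 in the 2 sets of hearts. In GLY the difference was -0.30 ± 0.08 (adjusted p = 0.032), and its call was lost without GLY replicate 1 or 3 or NTG replicate 1, 2, 3 or 5, with adjusted p up to 0.0993, and after quantile normalization (adjusted p = 0.0989). It was -0.38 and -0.22 in the 2 sets of GLY hearts.

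Mdh2, the mitochondrial malate dehydrogenase that closes the cycle, fell by 0.24 ± 0.06 in ARG at 1416478_a_at (adjusted p = 0.0124) and stood at -0.14 ± 0.06 at its other probe set (adjusted p = 0.186). At 1416478_a_at the difference was -0.28 and -0.19 in the 2 sets of hearts, and the call was lost after quantile normalization (adjusted p = 0.063). Ogdh, the first enzyme of the oxoglutarate dehydrogenase complex, was not called at either probe set (-0.10 ± 0.14 and -0.29 ± 0.13 in ARG). Since all 3 transgenes act through or make cyclic AMP, the start sites of the members were searched for its response element, TGACGTCA, on both strands from 250 bases before to 50 bases after each RefSeq start (GRCm38.p6). Windows were found for 30 of the 32 genes, all but Idh3a and Sdhc. The element was in 1.79% of all 32851 windows and in 4 of the members' 40 (10%), 1 for Mdh2 and 3 overlapping ones of Ogdh that share 1 match. These are the stretches that hold it, read on the plus strand from 5′ to 3′, with the element in capitals, at chr5:135778497-135778556 for Mdh2 and chr11:6291521-6291580 for Ogdh.
Mdh2: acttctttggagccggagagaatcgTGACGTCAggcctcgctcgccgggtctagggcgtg
Ogdh: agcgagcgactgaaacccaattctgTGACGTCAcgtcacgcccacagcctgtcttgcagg
The match begins 127 bases before the Mdh2 start, and 51, 60 or 113 bases before the 3 Ogdh starts. Searched in the same way, the estrogen-related receptor element TNAAGGTCA was in 1 member window, that of Sdhd (2.5%, against 1.28% of all), and the GABP element CCGGAAGTG in 1, that of Dlst (2.5%, against 2.03% of all). These are matches of letters, and binding was not measured.

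Enzymes that refill the cycle or exchange its intermediates fell in ARG for 3 of 6 genes and in GLY for none. Me1 is the cytosolic malic enzyme, which makes pyruvate and NADPH from malate. Its ratio at 1416632_at was 0.882 to 1.14 in NTG (median 1.01), 0.739 to 0.922 in AC5 (median 0.828), 0.587 to 0.958 in GLY (median 0.901) and 0.659 to 0.780 in ARG (median 0.708). ARG lay below all NTG hearts. The difference was -0.50 ± 0.10 in ARG (adjusted p = 0.00122) and -0.30 ± 0.10 in GLY (adjusted p = 0.0792). The ARG value was -0.57 and -0.44 in the 2 sets of hearts. Its second probe set, 1430307_a_at, fell by 0.38 in ARG (adjusted p = 0.0198), with -0.48 and -0.27 in the 2 sets. That adjusted p was 0.0578 without ARG replicate 3 and 0.0927 after quantile normalization.

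Me3, a mitochondrial malic enzyme, had ratios of 0.939 to 1.17 in NTG (median 1.02), 0.825 to 0.953 in AC5 (median 0.876), 0.747 to 1.10 in GLY (median 0.918) and 0.653 to 0.928 in ARG (median 0.728). ARG was the group without overlap with NTG. The difference was -0.46 ± 0.09 in ARG (adjusted p = 0.000732) and -0.18 ± 0.09 in GLY (adjusted p = 0.26), and the ARG value was -0.56 and -0.37 in the 2 sets. Pcx, pyruvate carboxylase, which makes oxaloacetate from pyruvate, fell by 0.40 ± 0.11 in ARG (adjusted p = 0.0141) and stood at -0.22 ± 0.11 in GLY (adjusted p = 0.259). The ARG value was -0.55 in replicates 1 to 3 and -0.25 in replicates 4 to 6, and its call was lost after quantile normalization (adjusted p = 0.0986). The 4 untested Pcx control probe sets differed from NTG by -0.19 to 0.02 in ARG. The malate-aspartate shuttle enzymes Got1, Got2 and Mdh1 were not called at any of their 10 probe sets, with differences of -0.29 to 0.22 in ARG.

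**Figure D2:**
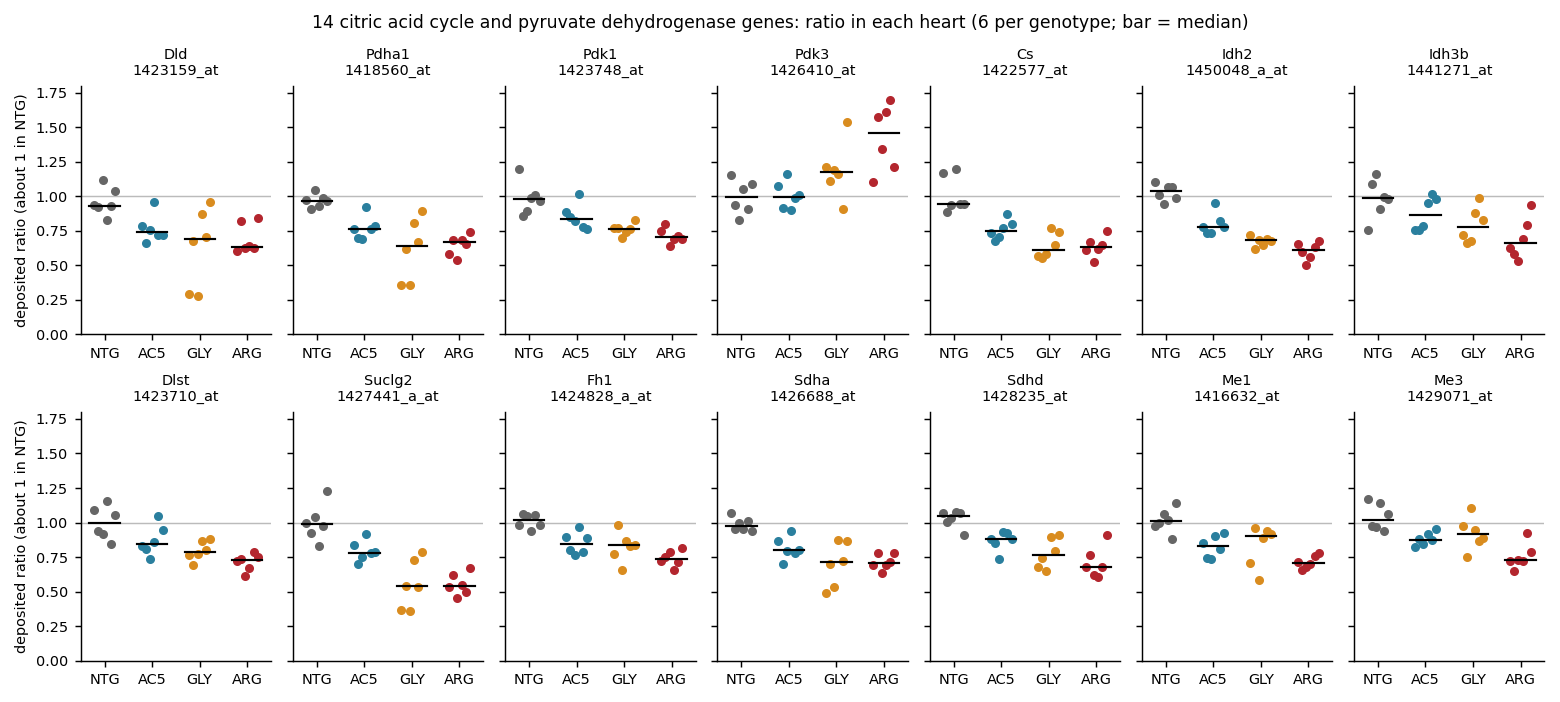
Deposited ratio (y axis, about 1 in NTG) of 14 genes in each of 6 hearts per genotype, with a bar at the median. ARG points lie below the NTG points for most genes, Pdk3 lies above (median 1.46 against 0.996), and the GLY points of Dld, Pdha1 and Suclg2 reach down to 0.280, 0.356 and 0.359.

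Counts within the replicate sets lay closer together in ARG than in GLY. In ARG, 16 of the probe sets fell in replicates 1 to 3 alone and 20 in replicates 4 to 6 alone, where 2.89% and 5.59% of all probe sets were called in either direction. In GLY, 19 fell and 1 rose in replicates 1 to 3 (6.08% of all were called), but only 1 fell in replicates 4 to 6 (0.160% of all), Idh2 at 1450048_a_at. In replicates 4 to 6 all 23 GLY probe sets were below 0, from -0.63 for Idh2 to -0.15 for Dld. These hearts took part in the calls that picked the 23, so this sign is not independent of that choice. Without the 3 low-weight arrays, 35 probe sets fell and 1 rose in ARG, where 13.2% of all were called, and 14 fell and 1 rose in GLY, where 2.91% of all were. After quantile normalization 27 of the 33 ARG calls and 13 of the 23 GLY calls remained, where 5.33% and 1.41% of all were called. The list's median for ARG was -0.43 in replicates 1 to 3 and -0.27 in replicates 4 to 6, and for GLY -0.30 and -0.13.

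Compared directly, ARG and GLY hearts showed no called difference in any of the 73 probe sets by limma, where 1.51% of all probe sets were called. Of 11 probe sets with an unadjusted p under 0.05, 10 were lower in ARG, again with no share counted over all probe sets. The lowest adjusted p was 0.0638, for Suclg1 (-0.23 ± 0.06), whose ratio was 0.957 to 1.03 in GLY and 0.755 to 0.871 in ARG without overlap. Me3 came next (-0.28 ± 0.09, adjusted p = 0.122), and Pdk3 stood at 0.26 ± 0.12 (adjusted p = 0.309). The median over the chosen probe sets was -0.09, beside -0.02 over all probe sets. Without the 3 low-weight arrays 2 member probe sets were called, where 1.53% of all were. A gene called in ARG against NTG and not in GLY against NTG is therefore not shown to differ between the receptor forms.

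ARG and AC5 hearts differed in 11 of the 73 probe sets. Here 10 fell in ARG relative to AC5 (13.7%, where 2.41% of all fell) and 1, Pdk3, rose (1.37%, where 2.52% of all rose). Idh2 at 1450048_a_at was lower by 24.6% (-0.41 ± 0.08, adjusted p = 0.00139), and Pdk3 was higher (0.49 ± 0.12, adjusted p = 0.0105). Suclg2 fell at both probe sets (-0.53 and -0.57), Pdk1 at 2 (-0.47 and -0.59), Cs at 2 (-0.29 and -0.30), and Dlat (-0.42), Pdhb (-0.30) and Sdhd (-0.36) at 1 each. Only Idh2, Pdk3 and Sdhd kept their call whichever 1 array was left out. The other 8 probe sets lost it without 1 or more of the 12 hearts, among them AC5 replicates 1 and 4 for all 8. After quantile normalization, however, only Suclg2 at 1435841_s_at and Pdk1 at 1435836_at remained of the 11. With a robust trend 3 remained, and after median centring 6. In replicates 1 to 3 alone none of the 73 was called by limma (0.542% of all were), and in replicates 4 to 6 alone 3 were (3.04% of all). GLY and AC5 differed in no member probe set by limma, where 0.693% of all were called. Of 15 with an unadjusted p under 0.05, 14 were lower in GLY, also with no share counted over all probe sets. The lowest adjusted p was 0.0684, for Suclg2 at 1427441_a_at.

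At the 1 chosen probe set per gene, some subunits of 1 enzyme did not shift by the same amount. For every pair of subunits or isoforms among the pyruvate dehydrogenase, kinase, isocitrate dehydrogenase, oxoglutarate dehydrogenase, succinyl-CoA ligase and succinate dehydrogenase genes, the log2 ratio of 1 was subtracted from the other within each heart. The difference was compared with that in NTG by an exact two-sided permutation test over the 12 hearts. There were 28 pairs in 2 comparisons, 56 tests in all, drawn up with the values known. The smallest p these arrays allow is 0.00216, and 21 tests had a Benjamini-Hochberg adjusted p under 0.05, 10 in ARG and 11 in GLY.

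Relative to Suclg1, Suclg2 was lower in both lines: Suclg1 minus Suclg2 rose by 0.57 in ARG (adjusted p = 0.0214) and 0.85 in GLY (adjusted p = 0.0187), by exact permutation. Within complex II, Sdha minus Sdhb changed by -0.39 in ARG and -0.50 in GLY (adjusted p = 0.0135 for both, exact permutation). Sdhb minus Sdhd changed by 0.47 and 0.38 (adjusted p = 0.0187 and 0.0214). For the NAD-dependent isocitrate dehydrogenase, Idh3a minus Idh3g changed by 0.25 in GLY (adjusted p = 0.0135) and by 0.28 in ARG (adjusted p = 0.0746). Between the kinases, Pdk1 minus Pdk3 changed by -0.96 in ARG and -0.61 in GLY (adjusted p = 0.0135 for both). Between the beta subunits of the ligase, Suclg2 minus Sucla2 changed by -0.99 and -1.04 (adjusted p = 0.0135 for both), with a Sucla2 probe set that was not called. Each of these pairs kept its sign in both replicate sets, for example -0.49 and -0.29 for Sdha minus Sdhb in ARG and -0.81 and -0.20 in GLY. These values use the 1 chosen probe set per gene. At the called Sucla2 probe set, 1452206_at, Sucla2 fell about as far as Suclg2 did at 1427441_a_at. The falls were 0.85 for Sucla2 and 0.86 for Suclg2 in ARG, and 0.93 and 0.91 in GLY. The shift between the beta subunits thus rests on the uncalled Sucla2 probe set. Sdha, Pdk1, Dlst, Dlat, Sucla2 and Idh3b each have both a probe set that fell and one that was not called in ARG and in GLY. So do Sdhd, Pdhb and Dld in GLY, and pairs with the other probe sets of these genes were not tested.

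**Figure D3:**
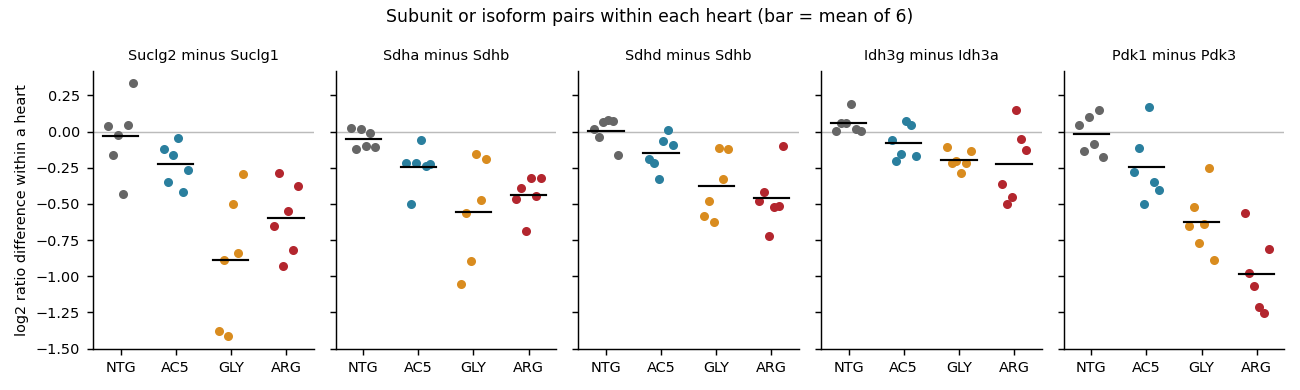
Difference in log2 ratio between 2 subunits or isoforms within each heart (y axis) for 5 pairs, with 6 hearts per genotype and a bar at the mean. The means of ARG and GLY lie below those of NTG in all 5 panels. Some ARG and GLY hearts reach the NTG range for the Suclg2 and Sdhd pairs, as does a single ARG heart for Idh3g minus Idh3a.

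Other genes around the pathway were counted from a list of 34, of which 30 were measured with 1 probe set each. Of these, 13 fell in ARG, 7 in GLY and 1 in AC5 against NTG, and none rose, with medians of -0.27, -0.15 and -0.13. Over all probe sets 5.63%, 3.53% and 0.0733% fell in these comparisons. The gene with the largest fall was Acat1, the mitochondrial acetoacetyl-CoA thiolase of ketone body use, at -1.23 ± 0.11 in ARG (adjusted p = 3.26e-08), -1.07 ± 0.11 in GLY (adjusted p = 2.12e-06) and -0.56 ± 0.11 in AC5 (adjusted p = 0.0251). Oxct1, the transferase that activates ketone bodies with succinyl-CoA, fell by 0.66 in ARG and by 0.74 in GLY. Nnt, which makes mitochondrial NADPH from NADH, fell by 0.88 and by 0.66. D2hgdh, a dehydrogenase that yields oxoglutarate, fell by 0.66 and by 0.56. The carriers Slc25a11 (oxoglutarate and malate) and Slc25a13 (aspartate and glutamate) and the complex II assembly factor Sdhaf2 also fell in both lines, by 0.27 to 0.49. Pdp2, Dhtkd1, Gpt, Sdhaf1, Lipt1 and Lipt2 fell in ARG and were not called in GLY. Against AC5 instead of NTG, 8 of the 30 fell and 1 rose in ARG, where 2.41% and 2.52% of all probe sets did. In GLY against AC5, 3 fell and 1 rose, where 0.693% of all were called in either direction. The highest differences from AC5 in this list were 0.79 in ARG and 0.83 in GLY.

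Fatty acid oxidation, the main source of acetyl-CoA in heart, was counted the same way. Of its 19 measured genes, 18 fell in ARG, 12 in GLY and 1 in AC5, with medians of -0.59, -0.39 and -0.27, against -0.37, -0.20 and -0.16 for the 32 genes described here. Of the 44 genes of respiratory complex I, 11 fell in ARG, 6 in GLY and 1 in AC5, with medians of -0.13, -0.02 and -0.04. The cycle genes thus lay between these lists in each comparison with NTG, though the difference between lists was not tested. By heart, the median log2 ratio of the 32 genes was -0.07 to 0.08 in NTG, -0.32 to -0.05 in AC5, -0.35 to -0.07 in GLY and -0.46 to -0.16 in ARG.

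**Figure D4:**
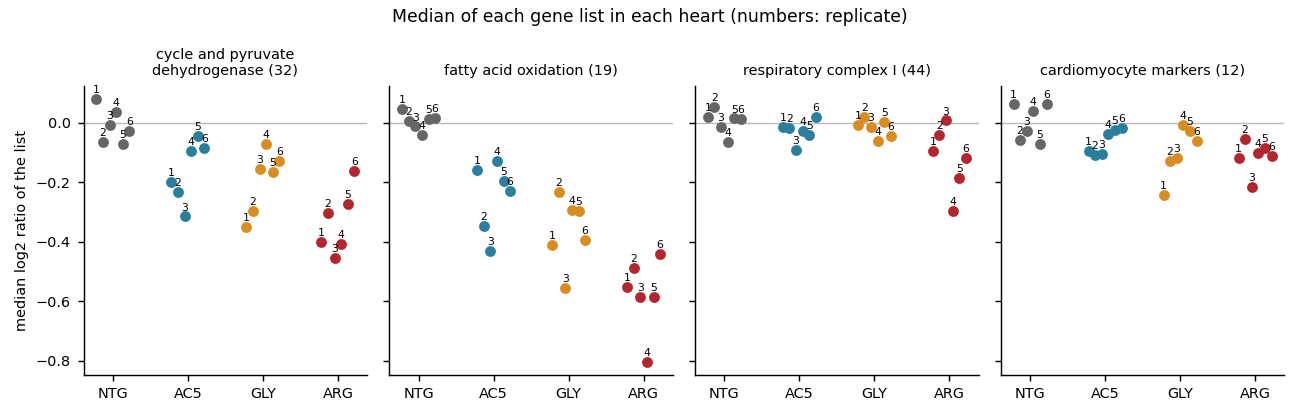
Median log2 ratio (y axis) of 4 gene lists in each heart, with the replicate number above each point. The cycle list lies below 0 in all 6 ARG hearts (-0.46 to -0.16), the fatty acid oxidation list lies lower still (-0.80 to -0.44), and complex I and cardiomyocyte markers stay nearer to 0.

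Markers of other cells moved in ARG together with these genes. Of 14 macrophage markers, 8 rose in ARG, where 4.04% of all probe sets rose. Their median per heart was 0.26 to 0.82 in ARG against -0.11 to 0.07 in NTG. Of 10 fibroblast markers, 6 rose in ARG, with a median per heart of 0.14 to 0.51 against -0.16 to 0.06. In GLY none of either list rose, 1 macrophage marker fell, and the medians per heart were -0.32 to 0.55 and -0.18 to 0.51. Of 12 cardiomyocyte markers, 2 fell in ARG (Ttn and Casq2) and 1 in GLY, with medians of -0.08 and -0.06 and a range per heart of -0.22 to -0.06 in ARG, -0.24 to -0.01 in GLY and -0.07 to 0.06 in NTG. Endothelial markers fell for 3 of 8 in ARG and 1 in GLY, and adipocyte markers for 2 of 5 and 1. None of the smooth muscle, lymphocyte, red blood cell or atrial markers was called in ARG or GLY. The part of these cells in the falls of the cycle genes was not tested. In bulk heart RNA, fewer cells of a type and less RNA per cell cannot be told apart, and ratios without signal levels do not show which markers were near 0.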

How the data were processed

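Total RNA from 24 mouse hearts was measured on Affymetrix arrays. Each deposited value is a linear ratio, and RMA is the tool in the submitters' processing notes. Its version, the division by the control level and the genome build are not given in the sources used here. Log2 of the ratio was taken. A single limma model (version 3.58.1, under R 4.3.3) took in all 24 arrays (1 mean per genotype, default empirical Bayes) over 45037 probe sets, leaving out 64 Affymetrix controls, with Benjamini-Hochberg adjustment within each comparison and a call at an adjusted p under 0.05. The median SE of the 73 member probe sets was 0.101 on the log2 scale, and the number of arrays sets this precision. "Rose" and "fell" are used of called probe sets, errors are SE of the fitted difference, and a gene is counted where at least 1 of its probe sets was called. Symbols came from the platform annotation, with 1 symbol for 34945 probe sets, several for 932 and none for 9160.

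The members and all gene lists were chosen with earlier results of these data known, so no set test was run, and list counts are descriptions beside those over all probe sets. Where 1 probe set stands for a gene it was chosen by suffix (_at, then _a_at, _s_at and _x_at) and then by lowest number. Values by heart are given for up to 14: in each role group those called at the chosen probe set in ARG or GLY against NTG, largest first, and any called in AC5 against NTG. Sucla2 at 1452206_at, with values by heart, and some ranges of uncalled genes were added after the values were seen. Other genes named are the called ones of the related list. Pdk4 and the called cardiomyocyte markers were named after their values were seen.

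Replicate numbers were shared between groups but the labels do not say that they pair hearts, so the main analysis has no block. Alternatives were quantile normalization, median centring, only the groups compared, the replicate number as a block, a term for replicates 1 to 3 against 4 to 6, each set alone, array weights, a weight per genotype, a robust trend, probe sets with 1 symbol, each array left out and the mean of all probe sets of a gene. Leaving out the 3 low-weight arrays was added after seeing the data. The scripts were tested on simulated data. Permutation tests used scipy 1.17.1, and promoter windows are RefSeq's for GRCm38.p6.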

Additional observations from a re-analysis of the deposited data

Results flagged for a closer look

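Effects of ARG and of AC5 against NTG differed, by the direct comparison of ARG with AC5 in limma, at 11 member probe sets. The log2 differences, ARG minus AC5, were -0.59 for Pdk1 at 1435836_at and -0.47 at 1423747_a_at, and -0.57 for Suclg2 at 1435841_s_at and -0.53 at 1427441_a_at. They were -0.42 for Dlat at 1452005_at, -0.41 for Idh2 at 1450048_a_at and -0.36 for Sdhd at 1437489_x_at. For Cs they were -0.30 at 1450667_a_at and -0.29 at 1422578_at, and for Pdhb -0.30 at 1416090_at. Pdk3 at 1426410_at differed the other way, by 0.49. Dixon's test flagged no single heart in the 56 groups examined (14 probe sets in 4 genotypes), where chance flags about 1 in 20. It compares the most extreme heart with its nearest neighbour, so it cannot flag hearts that stand apart together. GLY replicates 1 and 3 did so for Dld at 1423159_at, with ratios of 0.292 and 0.280. The next lowest GLY heart there was at 0.679.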

How the results depend on the processing

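Called member probe sets numbered 33 in ARG, 23 in GLY and 1 in AC5 against NTG, 0 in ARG against GLY, 11 in ARG against AC5 and 0 in GLY against AC5. In ARG against NTG the count moved by over 1.5 times only within replicates 1 to 3 (16) or 4 to 6 (20), and it was 31 to 34 with 1 array left out. In GLY against NTG it was 13 after quantile normalization, 15 without the 3 low-weight arrays, 1 in replicates 4 to 6, and 17 to 28 with 1 array left out. In AC5 against NTG it was 7 after quantile normalization, 6 with only the groups compared, 2 with the set term, 8 with array weights, 4 with a weight per genotype, 3 without the low-weight arrays, 0 with a robust trend, 0 in either set alone, and 0 to 1 with 1 array left out. In ARG against GLY it was 2 without the low-weight arrays and 0 to 1 with 1 array left out. In ARG against AC5 it was 2 after quantile normalization, 6 after median centring, 0 in replicates 1 to 3, 3 in replicates 4 to 6, 3 with a robust trend and 3 to 14 with 1 array left out. In GLY against AC5 it was 1 in replicates 1 to 3, 2 with the set term and 0 to 3 with 1 array left out. Counts over all probe sets moved too. For AC5 against NTG they were 64, then 398 after quantile normalization and 299 with only the groups compared. The set term gave 83, array weights 525, a weight per genotype 432 and a robust trend 23. For ARG against AC5 they were 2220, then 889 after quantile normalization, 2126 after median centring and 1972 with a robust trend. Each replicate set alone holds fewer hearts. In GLY against NTG, replicates 1 to 3 alone gave 20 member calls and 2740 over all probe sets. All GLY and NTG hearts together gave 23 and 2286. The cause of these shifts was not tested. The mean of all Dlst probe sets in GLY was 0.0599, the 1 reversed value.

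For no 2 groups did all 6 same-numbered pairs of hearts correlate over 0.1, so the numbers were not taken as pairs (36 pairs, r from -0.289 to 0.492, 16 over 0.1, and 5 best with their own number). GLY and ARG came nearest, with 5 of 6 over 0.1 and 3 of 6 best with their own number, and AC5 and ARG also had 5 of 6 over 0.1. With the replicate block the calls against NTG remained, 33 in ARG, 23 in GLY and 1 in AC5, and 1 was made in GLY against AC5. Ratios carry no brightness, so probe sets near background stay in every count.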
